A study of Mus musculus with 32 samples.

Results

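The histone mark H3K4me3, histone H3 that carries 3 methyl groups on lysine 4, was mapped in testis cells of B6 and RJ2 mice, and the intervals found in both strains were deposited as 1 list of common intervals. The narrow common intervals are those whose end minus start was at most 500 bp, 8278 of 41014 (20.2%, 95% Clopper-Pearson interval 19.8 to 20.6%). The remaining 32736 common intervals are called wider intervals. The narrow intervals were chosen by their width, a measured value, so width is given as a description. Gaps between intervals came from the same calls and are also given without a test, whereas DMC1, PRDM9, gene annotation and sequence were not used by the rule.

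B6 mice (C57BL/6JOlaHsd) carry the Prdm9 Dom2 allele, and RJ2 mice (B10.MOLSGR(A)-(D17Mit58-D17Jcs11)/Bdm) carry the Prdm9 Cst allele on a closely related C57BL/10 background. H3K4me3 was measured in elutriated pachytene testis cells of adult mice, with 1 ChIP library and 1 input per strain. The strand exchange protein DMC1 was mapped in whole testis at 5 weeks post-partum and PRDM9 in whole testis at 13 days post-partum, with 2 ChIP libraries per strain and mark. PRDM9 chromatin came from pools of mice. PRDM9 was also mapped at 13 days in Spo11KO mice (Spo11tm1M, 2 libraries), which make no programmed breaks, and in Prdm9KO mice (B6;129P2-Prdm9tm1Ymat/J, 1 library). The lists hold positions on mm9 without a score or a read count, pooled over replicates, so depth and the spread between mice are unknown, and the intervals given for shares cover counting error only. Neighbouring intervals can lie under the same peak and were not independent.

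H3K4me3 marks nucleosomes at active promoters and, at lower levels, at many enhancers. In meiotic prophase PRDM9, a methyltransferase with an array of zinc fingers, adds the mark at the DNA sites that its fingers recognize. SPO11 then cuts there, and DMC1 coats the resected ends of the break. Because the Dom2 and Cst arrays bind different sequences, hotspot H3K4me3 is found mainly in the strain with the matching allele, and intervals common to both strains are largely made up of promoters and other regulatory elements.

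Pieces of sequence show what a narrow interval could be. The first 2 examples come from places where narrow intervals lay beside other common intervals, and the capitals mark the bases that were inside a common interval. They are given on the plus strand of mm9.
Intron of Dmc1, chr15:79435082-79435181: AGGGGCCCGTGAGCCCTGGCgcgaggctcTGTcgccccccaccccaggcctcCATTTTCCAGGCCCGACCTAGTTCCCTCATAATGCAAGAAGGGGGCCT
Pair under a B6 PRDM9 peak, chr6:142996285-142996348: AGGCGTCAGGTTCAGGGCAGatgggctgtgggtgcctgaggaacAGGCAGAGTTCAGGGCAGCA
At Dmc1, which encodes the strand exchange protein itself, an interval of 3 bp (chr15:79435111-79435113) stood 9 bp from an interval of 509 bp and 20 bp from a narrow interval of 396 bp. The second example is the 24 bp that separated narrow intervals of 465 bp and 310 bp in an intron of 5730419I09Rik. The other 4 pieces are 200 bases long, with each CG dinucleotide in capitals, because CpG density is the sequence feature by which promoters of different kinds are told apart.
First 200 bases of the 396 bp interval at Dmc1, chr15:79435134-79435333: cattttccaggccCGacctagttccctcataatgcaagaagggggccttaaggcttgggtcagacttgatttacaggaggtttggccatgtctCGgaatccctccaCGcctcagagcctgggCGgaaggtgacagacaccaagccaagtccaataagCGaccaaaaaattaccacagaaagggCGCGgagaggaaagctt
Isolated interval with B6 PRDM9 and DMC1, chr5:29300843-29301042: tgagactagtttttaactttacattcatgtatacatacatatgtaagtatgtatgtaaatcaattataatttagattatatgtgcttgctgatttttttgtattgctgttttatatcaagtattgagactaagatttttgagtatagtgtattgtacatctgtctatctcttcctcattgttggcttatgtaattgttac
Satellite in A2m with RJ2 PRDM9 and DMC1, chr6:121586489-121586688: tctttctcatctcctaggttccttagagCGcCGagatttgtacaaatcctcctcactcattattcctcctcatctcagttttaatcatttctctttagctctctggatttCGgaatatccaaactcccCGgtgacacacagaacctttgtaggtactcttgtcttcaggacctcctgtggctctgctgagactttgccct
Interval far from any other, chr16:61397169-61397368: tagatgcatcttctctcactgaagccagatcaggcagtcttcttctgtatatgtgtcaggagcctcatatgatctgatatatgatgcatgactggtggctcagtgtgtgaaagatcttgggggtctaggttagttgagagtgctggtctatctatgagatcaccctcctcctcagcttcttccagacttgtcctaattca
The piece at Dmc1 held 7 CG dinucleotides at a GC content of 53.0%, and the piece in A2m, the gene of a protease inhibitor of plasma, held 4 at 45.5%. The isolated intervals on chromosomes 5 and 16 held 0 in their central 200 bp, at 26.5% and 45.5% GC.

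The narrow intervals ranged from 1 to 500 bp, with a median of 357 bp and quartiles of 209 and 431 bp. Slivers were common, and 25 intervals were 1 bp wide. Across the limit the numbers did not jump, with 20 intervals of exactly 500 bp just inside it and 24 that were 1 bp wider just outside. Together the narrow intervals covered 2601767 bp, or 4.03% of the sequence in common intervals. The H3K4me3 intervals specific to a strain were split in much the same way, with 23.8% of 10835 B6-specific and 24.5% of 24185 RJ2-specific intervals at or under 500 bp.

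Most narrow intervals stood close beside another common interval. Of the 8278, 6136 (74.1%, interval 73.2 to 75.1%) lay within 1 kb of the next, edge to edge, against 52.5% of the wider intervals and a background of 56.9% of all common intervals. The median gap was 141 bp for narrow intervals, 446 bp for those of over 500 to 1000 bp, 729.5 bp for those of over 1000 to 2000 bp and 2073 bp for those over 2000 bp. Gaps of at most 50 bp bordered 2473 narrow intervals (29.9%) and 13.98% of the wider ones. By the median the gaps were smallest for the narrow class and largest for the class over 2000 bp. Every class also held intervals over 10 kb from any other.

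**Figure D1:**
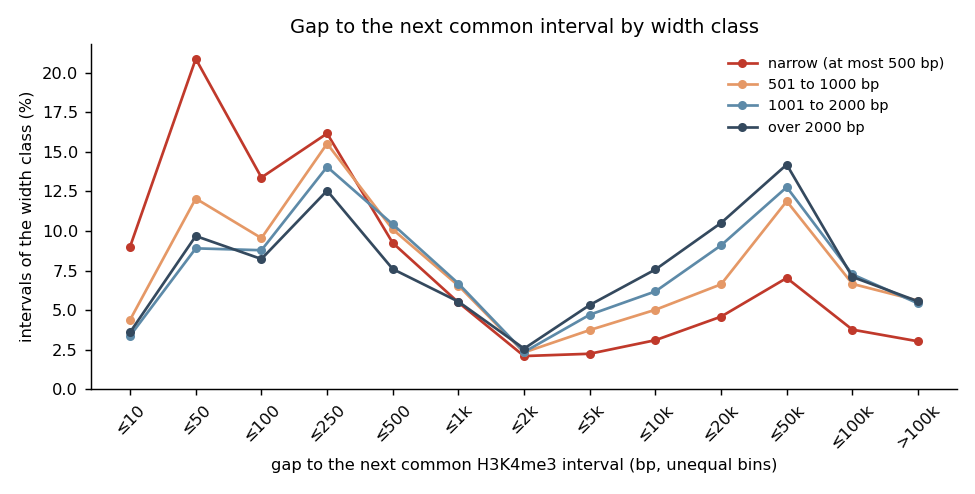
Share of each width class (y axis, %) by the gap to the next common H3K4me3 interval (x axis, bp, in unequal bins), for narrow intervals and 3 wider classes. Narrow intervals have a median gap of 141 bp and exceed the wider classes in the bins up to 250 bp, while the wider classes exceed them beyond 2 kb.

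Position was divided into 3 places. A satellite lay within 1 kb of a broad common interval, of at least 2 kb, a near interval was no satellite but lay within 10 kb of some common interval, and an isolated interval lay over 10 kb from all of them. By this rule 2092 narrow intervals (25.3%, interval 24.3 to 26.2%) were satellites, 4661 were near (56.3%) and 1525 (18.4%, interval 17.6 to 19.3%) were isolated. The background over all common intervals was 16.4% for satellites and 31% for isolated intervals. On each of 20 chromosomes, the Y left aside, satellites were a larger share and isolated intervals a smaller share of narrow than of wider intervals. The split rests on the width called broad, since with broad set at 1 kb satellites were 46.0% of narrow intervals and at 3 kb 14.2%.

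Within the narrow intervals, the share within 100 bp of the next was highest for the shortest. Of 598 intervals of 1 to 50 bp, 70.6% lay within 100 bp of the next common interval and 4.85% were isolated. Of 3004 intervals of over 400 to 500 bp, 32.6% lay within 100 bp and 25.2% were isolated, and the lowest isolated share, 3.12%, was that of 416 intervals of over 50 to 100 bp. The median width was 288.5 bp for satellites, 355 bp for near and 399 bp for isolated intervals. Past the limit the shares went on in the same direction without a step at 500 bp, at 27.4% within 100 bp and 27.4% isolated for over 500 to 600 bp.

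**Figure D2:**
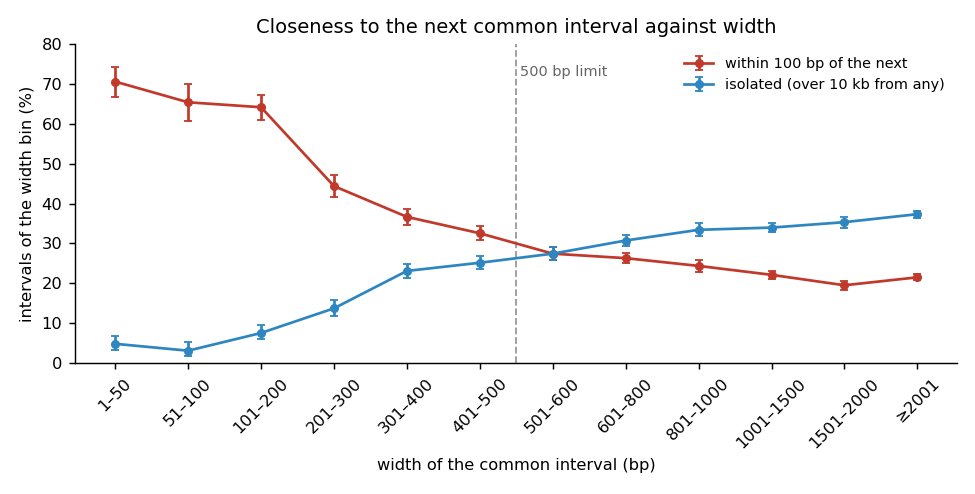
Share of common intervals within 100 bp of the next and share isolated by over 10 kb (y axis, %), by interval width (x axis, bp). Points are shares and bars are 95% Clopper-Pearson intervals. Closeness goes from 70.6% at 1 to 50 bp to 32.6% at over 400 to 500 bp, and isolation from 4.85% to 25.2%.

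Common intervals joined by gaps of at most 1 kb formed runs. Of the narrow intervals, 2142 (25.9%) stood alone, 4657 (56.3%) were at the end of a run and 1479 (17.9%, interval 17.0 to 18.7%) had neighbours within 1 kb on both sides, compared with 8.32% of the wider intervals. The nearest neighbour of the 6136 close intervals was itself narrow in 26.6%, over 500 to 1000 bp wide in 25.02%, over 1000 to 2000 bp wide in 23.4% and over 2000 bp wide in 24.97%. In the whole list narrow intervals are 20.2% and those over 2000 bp 26.6%. Only an interval within 1 kb of another can be such a neighbour, however. Of the 23319 common intervals this close to the next, 6136 were narrow. The share of narrow neighbours (interval 25.5 to 27.8%) is thus given without a test for an excess. Of 17183 wider intervals within 1 kb of the next, 4805 had a narrow interval as the nearest neighbour. Runs made only of narrow intervals numbered 357 and held 756 of them.

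Of 10901 broad intervals, 1855 (17.0%, interval 16.3 to 17.7%) had at least 1 narrow satellite, 264 had 2, 25 had 3 and 3 had 4. The first of those with 4, chr10:79387749-79390139, was 2391 bp wide and centred 844 bp from a start of Arid3a, a transcription factor gene, and its satellites were 141, 26, 492 and 418 bp wide. The runs with most narrow members, picked after their values were seen, held 6 each. The run at chr7:146766457-146769701 spanned the start of the homeobox gene Nkx6-2 with 8 intervals, and the run at chr2:127159843-127162658 spanned the start of the phosphatase gene Dusp2 with 6 intervals, each of them narrow.

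The sequence between close neighbours differed from the intervals. In 3141 gaps of 101 to 1000 bp beside a narrow interval, the central 100 bp had a median GC content of 54.0% and a median CpG ratio (observed over expected) of 0.417. The central 100 bp of the narrow intervals at these gaps had 49.0% and 0.296. In 4613 gaps of the same length between wider intervals the medians were 71% and 0.833. An annotated transcription start lay in 819 of 6579 gaps of at most 1 kb beside a narrow interval (12.4%, interval 11.7 to 13.3%) and in 28.99% of 7182 gaps between wider intervals. For their length, the gaps beside narrow intervals held more starts than the intervals did, with 70.9 gaps holding a start per 100 kb against 24.4 narrow intervals per 100 kb. The same held for wider intervals, with 120.1 gaps between them holding a start per 100 kb against 15.4 wider intervals. How far gaps between called intervals follow base composition in the libraries was not tested.

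Narrow intervals were fairly often at promoters but seldom on the start itself. The centre lay within 1 kb of a start in 2576 of them (31.1%, interval 30.1 to 32.1%), against 36.1% of wider intervals and a background of 35.1%, a difference of -4.94 percentage points (95% Newcombe interval -6.06 to -3.81). The start itself was inside 636 narrow intervals (7.68%), and a part of the difference from wider intervals (29.2%) follows from width. By place, 19.98% of narrow satellites, 36.8% of near and 28.98% of isolated intervals were at promoters, and isolated exceeded satellite intervals by 9.003 points (6.16 to 11.9). Of those at protein-coding starts, 50.5% (48.4 to 52.6%) were centred downstream of the start, while 57.6% of the wider intervals were. Exons held the centre of 12.6% of narrow intervals, introns 41.1%, and 46.3% were intergenic.

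The starts of meiosis genes, like those of coding genes in general, were more often inside broad than inside narrow intervals. A wide interval has more room to hold a start, so width enters these counts. For their length, 24.4 narrow and 15.4 wider intervals per 100 kb held an annotated start. Among 42 genes of meiosis, 16 had a start inside a common interval of over 2000 bp, 11 inside one of over 1000 to 2000 bp, 4 inside one of over 500 to 1000 bp, 2 inside a narrow one, and 9 had none. Over 22218 protein-coding genes, the widest interval on a start was over 2000 bp in 21.99%, over 1000 to 2000 bp in 11.7%, over 500 to 1000 bp in 4.7% and narrow in 1.8%, and 9.52% had a narrow interval centred within 1 kb. The list had 3 narrow intervals centred within 1 kb of a start, at 2 genes. They were the 3 bp and 396 bp intervals in an intron of Dmc1, centred 402 and 182 bp from its nearest start, and an interval of 483 bp on chr8:108160844-108161326, centred 119 bp inside Ctcf, the gene of the CCCTC-binding factor, and 79 bp from an interval of 846 bp. The 5 matched Sertoli cell, 5 Leydig cell and 5 blood markers had 0 starts in a common interval, against 6 of 7 pachytene markers and 4 of 5 spermatid markers. Over all protein-coding genes 8920 (40.1%) had a start in a common interval.

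DMC1 centres, the central 400 bp of DMC1 intervals, were rare in narrow intervals. In B6, 72 (0.870%, interval 0.681 to 1.09%) overlapped a DMC1 centre, below the background of 1.41%. In RJ2, 34 did (0.411%, interval 0.285 to 0.573%), below the background of 1.26%. Narrow minus wider was -0.676 points (-0.902 to -0.418) in B6 and -1.06 points (-1.24 to -0.854) in RJ2, with lower shares on 18 of 20 chromosomes in B6 and 20 of 20 in RJ2. These overlaps came from 69 of 14774 B6 peaks (0.467%) and 33 of 15195 RJ2 peaks (0.217%). In all, 93 narrow intervals had a DMC1 centre of either strain.

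A wide interval has more room to meet a peak, so equal windows of 500 bp on each interval centre were compared as well. In these, 95 narrow intervals (1.15%, interval 0.929 to 1.40%) had a B6 DMC1 centre against 0.751% of wider ones, and the difference turned to 0.396 points (0.166 to 0.664). The RJ2 shares were 0.616% (51 intervals) and 0.672%, with a difference of -0.0560 points (-0.231 to 0.154). Narrow intervals thus had more B6 DMC1 centres per window than the wider ones, and a difference in RJ2 was not detectable. Against intervals of over 500 to 1000 bp, the same difference was 0.117 points (-0.178 to 0.424) in B6 and -0.340 points (-0.590 to -0.0851) in RJ2.

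The isolated intervals had the highest DMC1 shares of the 3 places. Windows on 38 of 1525 isolated narrow intervals (2.49%, interval 1.77 to 3.40%) had a B6 DMC1 centre, compared with 0.982% of 11206 isolated wider intervals, which gives a difference of 1.51 points (0.810 to 2.44). In RJ2, 23 (1.51%, interval 0.958 to 2.25%) did, compared with 0.973%, a difference of 0.536 points (-0.00378 to 1.299). Among narrow satellites, 0.717% had a B6 and 0.335% an RJ2 centre. Isolated minus satellite was 1.77 points (0.960 to 2.73) in B6 and 1.17 points (0.560 to 1.94) in RJ2. Wider intervals, too, had their highest shares among the isolated ones. Wider satellites had 0.672% in B6 and 0.542% in RJ2, and near wider intervals 0.621% and 0.508%. Against isolated intervals of over 500 to 1000 bp, isolated narrow ones differed by 0.862 points (0.0306 to 1.85) in B6 and -0.212 points (-0.922 to 0.629) in RJ2.

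**Figure D3:**
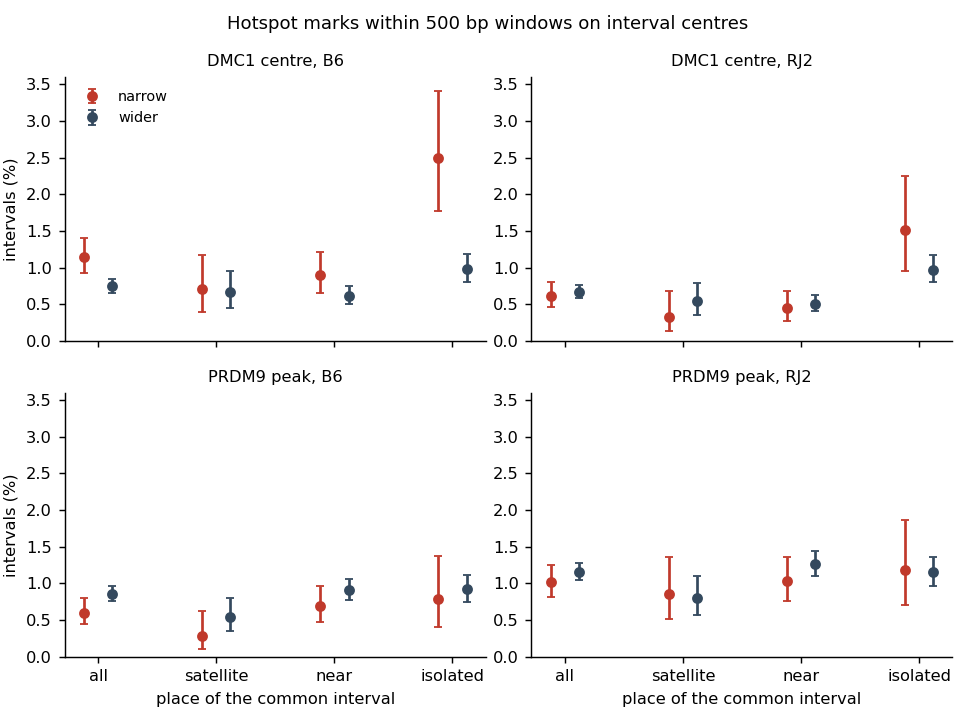
Share of common intervals (y axis, %) whose 500 bp central window met a DMC1 centre (upper panels) or a PRDM9 peak (lower panels) of B6 or RJ2, for all intervals and by place. Points are shares of narrow and of wider intervals and bars are 95% Clopper-Pearson intervals. Isolated narrow intervals stand highest for DMC1, at 2.49% in B6 and 1.51% in RJ2.

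The distance to the nearest DMC1 midpoint showed how local this was. For isolated narrow intervals, 40 had a B6 midpoint within 500 bp of their centre, 16 had it 500 to 1000 bp away, and each bin of 500 bp from 1000 to 4000 bp held 5 to 16. The RJ2 bins held 26, then 21, then 5 to 15. This was not particular to narrow intervals. The 11206 isolated wider intervals had 118 B6 midpoints within 500 bp and 58 in the next bin, and 123 and 71 in RJ2. Over all narrow intervals, 101 had a B6 midpoint within 500 bp, 69 in the next bin and 34 to 63 in each bin from 1000 to 4000 bp. In RJ2 there was no such peak at the centre, with 57 within 500 bp, 66 in the next bin and 50 to 65 in the bins beyond.

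DMC1 centres on narrow intervals were more often from B6 than from RJ2. Of 80 narrow intervals with a centre of only 1 strain, 59 had it in B6 (73.8%, interval 62.7 to 83.0%). Of 847 such wider intervals, 436 did (51.5%), and the shares differed by 22.3 points (11.2 to 31.3). In the 500 bp windows they were 70.8% of 106 and 53.5% of 368, a difference of 17.2 points (6.68 to 26.6). The direction was the same among satellites (9 and 4), near (26 and 10) and isolated intervals (24 and 7). With 1 H3K4me3 library per strain, the strain cannot be told apart from its library.

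For comparison, strain-specific H3K4me3 intervals under the same width limit were far richer in DMC1. Their median widths were 427 bp (B6) and 416 bp (RJ2), against 357 bp for narrow common intervals. Of 2583 B6-specific intervals of at most 500 bp, 497 (19.2%, interval 17.7 to 20.8%) overlapped a B6 DMC1 centre, and of 5929 RJ2-specific ones 745 (12.6%, interval 11.7 to 13.4%) overlapped an RJ2 centre. Narrow common intervals were thus poor in DMC1 beside narrow intervals of a single strain. The contrast was also present above 500 bp. There 67.4% of B6-specific and 64.6% of RJ2-specific intervals had a DMC1 centre of their strain, against 1.55% (B6) and 1.47% (RJ2) of wider common intervals. Within 1 kb of a strain-specific interval lay 11.3% of narrow and 11.2% of wider common intervals, a difference of 0.0965 points (-0.652 to 0.873). Among isolated intervals the shares were 16.2% and 12.0%, a difference of 4.16 points (2.29 to 6.18).

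PRDM9 peaks were also rare on narrow intervals. B6 peaks overlapped 41 (0.495%, interval 0.356 to 0.671%, background 1.39%) and RJ2 peaks 69 (0.834%, interval 0.649 to 1.05%, background 1.86%). Narrow minus wider was -1.12 points (-1.32 to -0.904) in B6 and -1.28 points (-1.52 to -1.02) in RJ2. In 500 bp windows the differences shrank to -0.257 points (-0.437 to -0.0440) and -0.146 points (-0.375 to 0.118). Unlike B6 DMC1, PRDM9 in these windows did not differ detectably between isolated narrow and isolated wider intervals. The differences were -0.132 points (-0.521 to 0.473) in B6 and 0.0292 points (-0.454 to 0.731) in RJ2. RJ2 DMC1 did not differ detectably there either, at 0.536 points (-0.00378 to 1.299).

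Some narrow intervals had both PRDM9 and DMC1. Of the 41 with a B6 PRDM9 peak, 6 (14.6%, interval 5.57 to 29.2%) also had a B6 DMC1 centre, against 0.870% of all narrow intervals and 13.0% of 530 wider intervals with a B6 peak. Of the 69 with an RJ2 peak, 9 (13.0%, interval 6.14 to 23.3%) had an RJ2 DMC1 centre, against 0.411% of all narrow intervals and 34.5% of 693 wider intervals with an RJ2 peak (30.9 to 38.2%). DMC1 was thus more frequent where PRDM9 was listed than over narrow intervals as a whole, though most of these intervals had no DMC1 centre. At promoters were 25 of the 41 B6 intervals (61.0%) and 39 of the 69 RJ2 intervals (56.5%), beside 31.1% of all narrow intervals, whereas 10 of the 72 narrow intervals with a B6 DMC1 centre (13.9%) and 6 of the 34 with an RJ2 centre (17.6%) were. Narrow intervals with PRDM9 were thus at promoters more often, and those with B6 DMC1 less often, than narrow intervals as a whole, while the 34 with RJ2 DMC1 were too few to place. Wider intervals showed the same contrast, with 69.4% (B6) and 44.3% (RJ2) of those with PRDM9 at promoters and 25.3% and 24.3% of those with DMC1. In all, 8095 of the 8278 narrow intervals had neither mark in either strain.

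Peaks of the knockouts were few. Spo11KO peaks overlapped 4 narrow intervals (0.0483%, background 0.0902%), and each of the 4 also had a B6 PRDM9 peak. Prdm9KO peaks, which mark signal of the antibody without its target, overlapped 18 (0.217%, background 0.38%), and 14 of these were at promoters. Of the 41 narrow intervals with a B6 PRDM9 peak 0 had a Prdm9KO peak, and of the 69 with an RJ2 peak 2 did, while 2 of 2601 peaks of the whole B6 list (0.0769%) and 252 of 10121 of the RJ2 list (2.49%) overlapped a Prdm9KO peak. The methods describe removal of PRDM9 peaks over knockout peaks, and the RJ2 list still held such peaks. The B6 and RJ2 PRDM9 lists hold strain-specific peaks, and 1 narrow interval had PRDM9 peaks of both strains.

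Individual sites show the range. For each strain, the narrow intervals described are the 3 with a DMC1 centre whose PRDM9 peak stood first in the deposited list, which is not in genome order. In B6, the first such peak, at place 391, covered part of the 310 bp interval chr6:142996329-142996638 and of its neighbour chr6:142995840-142996304, the pair whose 24 bp gap is printed above. B6 and RJ2 DMC1 centres both met these intervals, and the B6 midpoint was 86 bp from the centre of the first. The next, at place 449, met the isolated interval chr5:29300702-29301184, which stood 31561 bp from its neighbour. There, as at the chr6 pair, both Spo11KO and B6 mice had PRDM9 peaks. An RJ2 DMC1 interval also overlapped the chr5 interval, but its central 400 bp did not, with the midpoint 587 bp away. In RJ2, the first at place 201 met the satellite chr6:121586399-121586778 in an intron of A2m, 182 bp from an interval of 2514 bp, with the DMC1 midpoint 33 bp from its centre. The second, at place 395, met chr6:88801950-88802411 in an intron of Podxl2, a gene of the sialomucin family, and the third, at place 1158, met the isolated intergenic interval chr1:101306159-101306546.

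DMC1 centres of both strains met 13 narrow intervals. By position the first are chr2:5944135-5944392, centred 121 bp from a start of Upf2, a gene of nonsense-mediated decay, chr3:100912037-100912508 in an intron of Ptgfrn, and the intergenic chr3:136635486-136635768, which also met a B6 PRDM9 peak at place 1204. At Upf2 the midpoints lay 233 bp (B6) and 225 bp (RJ2) from the interval centre, at Ptgfrn 320 and 88 bp, and at the third 308 and 130 bp. These 3 were isolated, at 59861, 137938 and 16444 bp from the next common interval. The intervals farthest from any other had neither mark. They were chrX:85017997-85018223 in an intron of Il1rapl1 and 419 bp from a start of Gm14776, 790783 bp from its neighbour, chr5:94705581-94705861, at 699882 bp, and chr16:61397059-61397479, at 699437 bp, whose sequence is printed above.

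The word GGTGCTGCT, taken for the core of the Dom2 motif, was rare in 500 bp windows on narrow intervals, on either strand. It was in 85 of 8278 windows (1.03%, interval 0.821 to 1.27%) and in 0.858% of wider ones. Of the windows on the 72 narrow intervals with a B6 DMC1 centre, 0 held it exactly, which allows a share of up to 4.17%. With at most 1 mismatch 20 held it (27.8%, interval 17.9 to 39.6%), against 16.3% (15.5 to 17.1%) of all narrow windows. On the 34 narrow intervals with an RJ2 DMC1 centre, 4 windows (11.8%, interval 3.3 to 27.5%) held it with at most 1 mismatch. On the 506 wider intervals with a B6 DMC1 centre, 95 windows did (18.8%, interval 15.5 to 22.5%). The narrow intervals with B6 DMC1 had the highest of these shares, on 20 windows, and the intervals of the narrow and the wider share overlap. The B6 DMC1 midpoint lay a median of 243 bp from the centre of the narrow and 460.5 bp from that of the wider intervals. A window could thus leave the break site out, and these shares do not compare the word at break sites.

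Words of general transcription factors were counted in the same windows. The word GCGCATGC, a core of NRF1 sites, was in 85 of 1525 windows on isolated narrow intervals (5.57%, interval 4.48 to 6.85%) and in 2.69% of isolated wider ones, a difference of 2.88 points (1.79 to 4.18), with the same direction on 18 of 20 chromosomes. Against isolated intervals of over 500 to 1000 bp (4.26%), the class nearest in width, the difference was 1.32 points (0.0372 to 2.74), with the same direction on 12 of 20 chromosomes. NRF1 is a CpG-binding activator of genes for mitochondria and metabolism. Promoters held 29.4% (20.02 to 40.3%) of these 85 and 28.96% (26.6 to 31.4%) of the other 1440 isolated narrow intervals. By place the word was in 1.39% of narrow satellites and 2.81% of near narrow intervals.

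The word CCGGAAGT, an ETS factor site, went the other way. It was in 141 narrow windows (1.70%, interval 1.44 to 2.01%) and in 3.39% of wider ones, a difference of -1.69 points (-2.02 to -1.33) with the same direction on 20 of 20 chromosomes. Among isolated intervals the shares were 2.95% and 5.30%. The words AGGGGGC and AGGTGGC of the CTCF core were in 17.9% of narrow and 15.7% of wider windows, a difference of 2.25 points (1.35 to 3.18). TGACGTCA, the cyclic AMP response element, was in 1.15% and 0.917%, and GTTGCCAT, the core of an RFX site, in 1.76% and 2.04%, with intervals of the difference that included 0. A word is a run of letters, and whether a factor was bound was not measured.

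**Figure D4:**
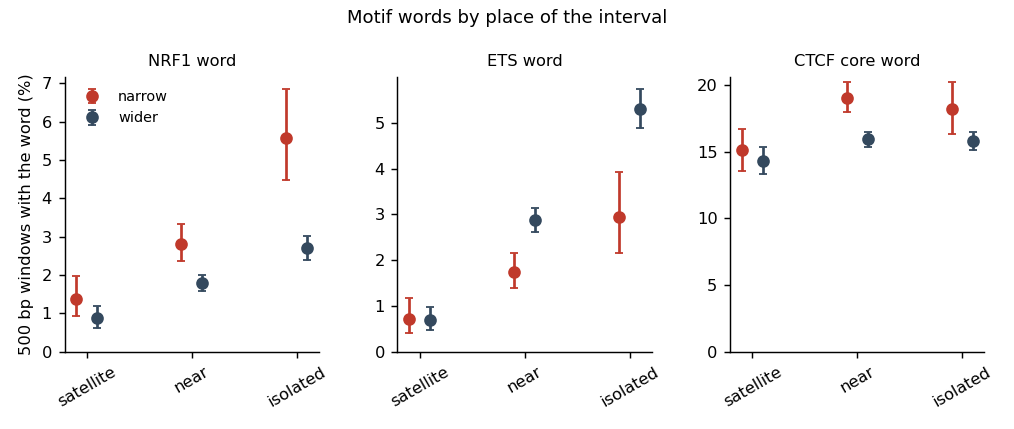
Share of 500 bp windows on interval centres that held the NRF1, ETS or CTCF word on either strand (y axis, %), by place of the interval. Points are shares of narrow and of wider intervals and bars are 95% Clopper-Pearson intervals. The NRF1 word reaches 5.57% in isolated narrow intervals, while the ETS word is lower there (2.95%) than in isolated wider ones (5.30%).

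Base composition changed with place. The central 200 bp of narrow intervals had a median GC content of 47.5% and a CpG ratio of 0.270, near the 47.0% and 0.275 of wider intervals. Narrow satellites had 45% and 0.1997, near intervals 48.0% and 0.290, and isolated intervals 49.0% and 0.355. Satellites were also lowest among wider intervals, with 45% and 0.204. Near wider intervals had 47.5% and 0.289, and isolated wider intervals 48% and 0.289. CpG-rich centres, with at least 55% GC and a CpG ratio of at least 0.65, were 8.52% of narrow and 6.84% of wider intervals. The difference was 1.68 points (1.03 to 2.35). It was 4.98 points (3.85 to 6.22) among satellites and 2.73 points (1.84 to 3.67) among near intervals. Among isolated intervals it was -1.22 points (-2.59 to 0.325). Of the narrow intervals 0 shared its central 100 bp with another common interval (4 wider intervals did).

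Across whole autosomes the density of narrow intervals went with that of common intervals. They numbered from 2.44 per Mb on chromosome 1 to 4.57 per Mb on chromosome 11, which is rich in genes, with a median of 3.26. Over 19 autosomes this density had a Pearson r of 0.955 and a Spearman rho of 0.909 with that of all common intervals, of which narrow ones are a part, and 0.683 and 0.656 with that of protein-coding genes. As a share of common intervals they ranged from 17.9% (15.7 to 20.3%) on chromosome 19 to 21.7% (19.9 to 23.6%) on chromosome 14, and these intervals overlap. In 255 full windows of 10 Mb the number ran from 5, on chromosome 1 (110 to 120 Mb) and on chromosome 4 (70 to 80 Mb), to 82 on chromosome 11 (100 to 110 Mb), with a median of 28. The first 10 Mb of chromosome 14 departed from this, since 58 of its 124 common intervals were narrow (46.8%, interval 37.8 to 55.9%), the highest share of the 255 windows. Of these 58, 42 (72.4%) lay within 1 kb of another common interval, against 74.1% of all narrow intervals. At promoters were 15 (25.9%, interval 15.3 to 39.0%), against 31.1%. Only 1 was a satellite (1.72%, interval 0.0436 to 9.24%), against 25.3%. In each strain 0 had a DMC1 centre (interval 0 to 6.16%), and over all narrow intervals 0.870% (B6) and 0.411% (RJ2) did, so 58 were too few to tell. Without this window, which was singled out after its values were seen, the share on chromosome 14 was 19.97% (18.2 to 21.9%), and the highest autosome was chromosome 17 at 21.3%.

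The X chromosome stood apart. It had the lowest density after the Y, 2.24 per Mb, and the highest share of its common intervals that were narrow among chromosomes with over 100 of them, 374 of 1425 (26.2%, interval 24.0 to 28.6%), against 19.96% (19.6 to 20.4%) on the autosomes. X minus autosomes was 6.28 points (4.03 to 8.66). Common intervals on the X were shorter as a whole, with a median of 855 bp against 1110 bp, and 14.2% of them were broad against 27.0%. The X is silenced in pachytene spermatocytes, the cells used for H3K4me3, and how far this bears on the widths was not tested.

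**Figure D5:**
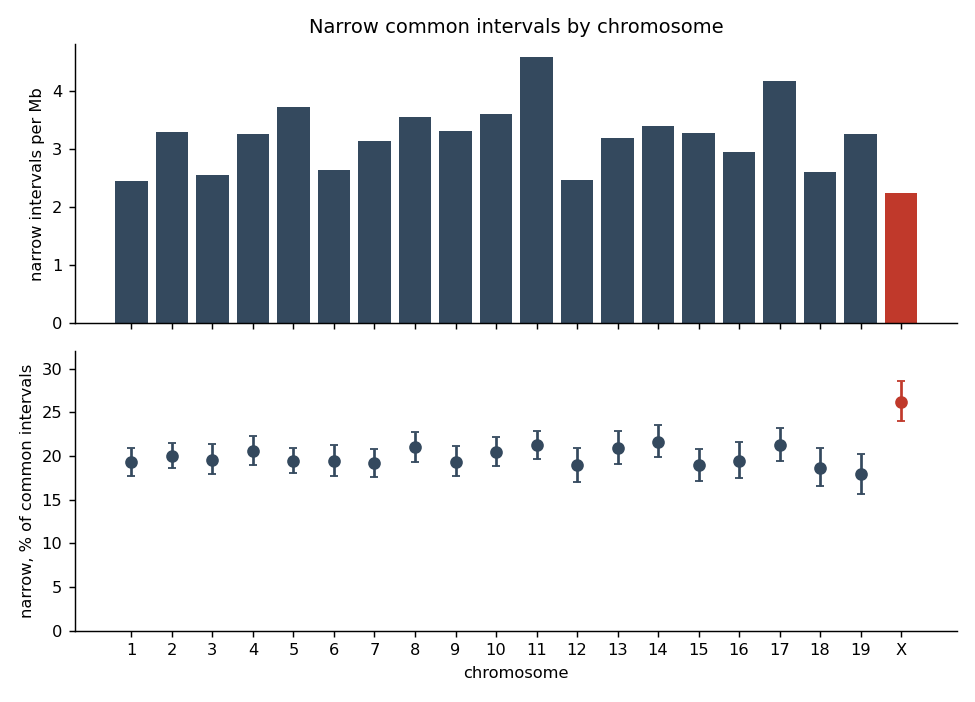
Narrow common intervals per Mb (upper panel) and as a percentage of all common intervals (lower panel, points with 95% Clopper-Pearson intervals) on chromosomes 1 to 19 and X. The X has 2.24 per Mb and a share of 26.2%, above each autosome (17.9 to 21.7%).

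Narrow intervals on the X were seldom satellites and were often at promoters. Only 29 of 374 (7.75%, interval 5.25 to 10.9%) were satellites against 26.1% on the autosomes, a difference of -18.4 points (-20.9 to -15.1), while 25.9% were isolated against 18.1%. The wider intervals of the X went the same way. Of these 4.19% were satellites against 14.4% on the autosomes, a difference of -10.2 points (-11.4 to -8.81), and 40.9% were isolated against 34.0%. At promoters were 193 (51.6%, interval 46.4 to 56.8%) against 30.1% on the autosomes, a difference of 21.5 points (16.3 to 26.6), and the wider intervals of the X differed from those of the autosomes by 28.0 points (25.03 to 30.9). Of the 193, 31 (16.1%) were nearest to a pseudogene start, as were 2.52% on the autosomes and 13.4% of wider promoter intervals on the X. DMC1 centres met 6 narrow X intervals in B6 (1.60%) and 2 in RJ2 (0.535%), shares whose differences from the autosomes had intervals that included 0. PRDM9 peaks met 3 in B6 and 0 in RJ2, which allows a share of up to 0.802%. The Y held 17 common intervals, 5 of them narrow with 0 DMC1 centres and 0 PRDM9 peaks of either strain, and the mitochondrial sequence held 3, of which 0 were narrow.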

How the data were processed

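The series holds 32 libraries of mouse testis, of which 22 stand behind the 9 lists used, and the 10 H3K36me3 libraries were not analysed here. The values are positions on mm9 and carry no score. Per the labels and the methods of the study, the authors deposited lists pooled over replicates. H3K4me3 reads were aligned with Bowtie, and intervals called by MACS on 3 sets of reads were intersected, a step that can split or trim intervals. DMC1 reads were aligned with a modified BWA for single-stranded DNA and PRDM9 reads with Bowtie2, and peaks were called with MACS2, with a check of reproducibility between replicates. The submitters' processing notes name BWA, Bowtie, Bowtie2, CASAVA and MACS2. The methods describe removal of PRDM9 peaks over Prdm9KO peaks, but 252 of 10121 peaks of the deposited RJ2 list and 2 of 2601 of the B6 list overlapped one. Depth cannot be read from such lists.

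Starts were moved to 1-based positions. Overlap needed 1 bp, with the central 400 bp of each DMC1 interval or the whole PRDM9 peak, and a promoter was within 1 kb of a GENCODE start on mm9. Sequence came from the mm9 genome, and words were searched on both strands. Shares carry 95% Clopper-Pearson intervals and differences 95% Newcombe intervals, and no p was computed over intervals. A count of 0 was given the limit of 3 counts. Counts of chromosomes in a direction are descriptions. Neighbouring intervals shared peaks (69 B6 DMC1 peaks lay behind 72 narrow intervals, 33 RJ2 behind 34, 37 B6 PRDM9 behind 41 and 64 RJ2 PRDM9 behind 69).

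The members and lists were chosen with earlier results of these data known. Named sites were, in each strain, the 3 narrow intervals with a DMC1 centre whose PRDM9 peak stood first in its list, up to 3 with DMC1 centres or PRDM9 peaks of both strains in order of position, the 3 farthest from any other, the broad interval with most satellites, and those within 1 kb of a start of a meiosis gene. The contents of gaps, the strain split, the comparison of the X with autosomes and the promoter share of NRF1 windows were chosen after values were seen. Overlap and gap code was tested on simulated intervals, with 0 of 4800 comparisons different from a base by base count. Python 3.11.15, numpy 2.4.6, pandas 2.3.3, scipy 1.17.1, pysam 0.24.0, samtools 1.23.1 and matplotlib 3.10.9 were used.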

Additional observations from a re-analysis of the deposited data

How the results depend on the processing

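Of 95 alternatives over 23 results, 30 of 58 shares, counts and medians moved and 28 did not. A share moved when it left the interval of the reported value, a median when it left the quartiles, and the number of narrow intervals when it changed by over 1.5 times. Of the differences, 30 of 37 kept their direction and their side of 0. In equal 500 bp windows the difference between narrow and wider intervals turned to 0.396 points for B6 DMC1, 0.00236 for Spo11KO and 0.0249 for Prdm9KO peaks, and its interval included 0 for RJ2 DMC1 (-0.0560) and RJ2 PRDM9 (-0.146). By construction these windows remove the extra room of wide intervals. With whole DMC1 intervals the B6 difference was -0.186, with an interval that included 0, and at 50% overlap the Spo11KO difference was -0.0857, with one that left it out. A width limit of 400 bp gave 5274 narrow intervals, 79.7% within 1 kb of the next, 16.6% of common intervals on the X and 12.7% on the autosomes. A limit of 600 bp gave 71.1%, 34.7% and 26.4%. The share within 1 kb was 47.4% between centres, 68.6% at 500 bp and 76.2% at 2 kb. Satellites were 46.0% with broad set at 1 kb, 14.2% at 3 kb, 21.5% with a distance of 500 bp and 29.1% with 2 kb. Isolated intervals were 21.5% at 5 kb, 13.8% at 20 kb and 11.8% when strain-specific intervals counted as neighbours. DMC1 shares in B6 were 2.13% with whole intervals, 0.266% with midpoints and 1.15% in windows, and in RJ2 1.44%, 0.193% and 0.616%. PRDM9 shares were 0.205% in B6, 0.399% in RJ2 and 0.0121% in Spo11KO at 50% overlap, and 0.193% in B6 and 0.326% in RJ2 with only the first 50% of each list. Promoters were 22.7% at 500 bp and 41.4% at 2 kb. Chromosome 14 without its first 10 Mb, an alternative chosen after seeing the data, had a narrow share of 19.97%. No paired analysis was possible because the lists were pooled over replicates and hold no value per replicate, and for the same reason no replicate could be left out. The first 50% was not run for the DMC1 and Prdm9KO lists, which are in genome order. Depth is unknown, so a share of 0 or near it limits listed peaks only.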
